A study of Homo sapiens with 6 samples.

Results

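Open chromatin was examined at 10 genes that carry signals for cell death: the death receptors FAS, TNFRSF10A, TNFRSF10B and TNFRSF1A, the initiator caspases CASP8 and CASP10 with their regulator CFLAR, and the kinases RIPK1 and RIPK3 with the necroptosis effector MLKL. Peaks that shared at least 1 base in any of 6 ATAC-seq libraries were merged into regions, and a region was assigned to a gene when its top summit lay in the gene body or within 50 kb of it. Of 105572 regions in the genome, 105 met this rule. The windows of the adjacent genes CFLAR, CASP10 and CASP8 overlap, so 10 of the 105 regions belong to more than 1 of the 10 genes. Only 39 of the 105 regions have one of the 10 genes as the nearest protein-coding 5′ end, and for the other 66 the nearest 5′ end belongs to a neighboring gene.

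In ATAC-seq the Tn5 transposase cuts accessible DNA and tags it for sequencing. All 6 libraries came from RH30, a fusion-positive rhabdomyosarcoma line, transduced with Cas9. The 3 vector libraries came from cells with non-targeting scramble guides, and the 3 MyoD-deleted libraries from cells with guides against MyoD, the transcription factor that drives skeletal muscle differentiation. The study asked whether MyoD keeps such cells alive by holding death genes silent, and no TNF or drug treatment is given for these libraries. The labels call the 3 libraries of a group biological replicates and do not say whether the cells were 1 clone or a pool. The text of the study in part names a line with an added NF-κB inhibitor, and the labels name RH30 alone, so the presence of that inhibitor here is not known.

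Death receptors of the TNF receptor family sit in the cell membrane and carry cytoplasmic death domains. Ligand binding can lead, at the receptor or in a later complex, to activation of caspase-8 or caspase-10, which starts apoptosis. CFLAR encodes c-FLIP, a relative of caspase-8 without a working protease that holds this step in check. When caspase-8 is inactive, RIPK1 and RIPK3 can instead form a complex that phosphorylates MLKL, which breaks the plasma membrane in the form of death called necroptosis. RIPK3 is known to be silenced by promoter methylation in many cancer lines.

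The deposited lists hold 63140 to 74121 peaks per vector library and 73745 to 80608 per MyoD-deleted library after removal of 1 mitochondrial peak each, and they carry no read totals, so the depth is unknown. Of 9 genes of skeletal muscle and rhabdomyosarcoma, 8 had an open region at the 5′ end in every library, MYH3 in none. The 5′ end of MYOD1 had a fold enrichment of 9.83, 10.6 and 9.71 in vector and 9.05, 10.7 and 10.3 in MyoD-deleted libraries, a value that does not report on edits of the gene. The blood genes PTPRC, CD3E and SPI1 had no such region in any library. Of 3 epithelial genes, EPCAM was open in 2 vector and all 3 MyoD-deleted libraries, KRT8 in 2 MyoD-deleted libraries and CDH1 in none, and their part in the values that follow was not tested. In a bulk library, more cells with an open site and a more open site per cell cannot be told apart.

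Of the 105 regions called around the 10 genes, 60 were called in all 6 libraries, where 45.4% of all regions were. Of the others, 36 were called in some libraries of both or of 1 group, 7 were gained and 2 were lost. A gained region was called in all 3 MyoD-deleted and no vector library, which held for 6.67% of the 105 regions against 4.56% of all 105572. With the same number of peaks taken from every library, 2 of 90 regions were gained, against 3.26% of all regions. A lost region was called in all 3 vector and no MyoD-deleted library, which held for 1.9% against 1.78%. Among the other 36, 23 were called in more MyoD-deleted than vector libraries (63.9%, against 60.3% of 50988 such regions in the genome) and 13 in more vector libraries. Vector libraries called 76, 70 and 74 of the 105 regions, and MyoD-deleted libraries 81, 83 and 80. The lists of MyoD-deleted libraries 2 and 3 are also longer than every vector list across the genome. The lost count was 5 without vector replicate 2 and 4 without MyoD-deleted replicate 3, where the rule asks for fewer libraries. The share of all regions lost was not computed for these settings, so the counts cannot be read against it.

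**Figure D1:**
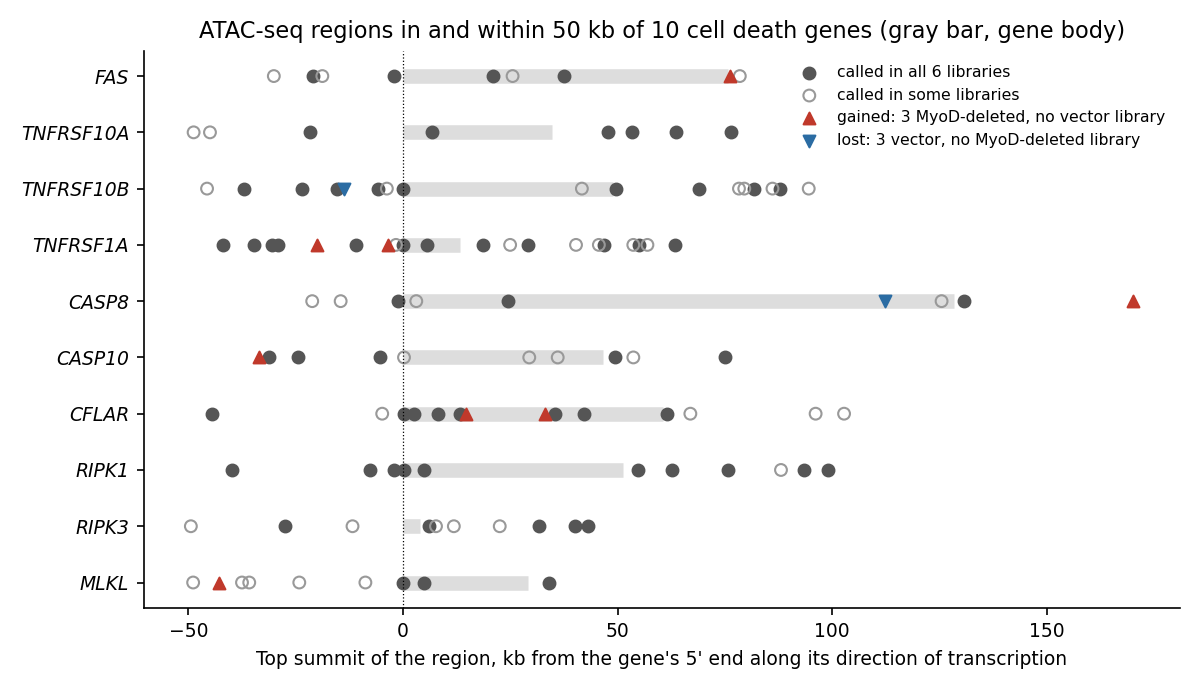
Each mark is a region, placed by the distance in kb of its summit from the 5′ end of the gene (horizontal axis, along the direction of transcription), with 1 row per gene and a gray bar for the gene body; regions shared by neighboring genes appear in each row. Filled circles (60 regions) are called in all 6 libraries, open circles (36) in some, upward triangles (7) are gained and downward triangles (2) are lost, and none of the gained or lost regions lies at 0.

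The 60 regions called throughout were compared by a pair of measures. The first is the rank of a region's fold enrichment over local background within its library, given as a percentile among 47885 such regions. The second is summit height, the pileup of fragments at the summit over the smallest background of that library, on the log2 scale and centred so that the median region of each library is at 0. Both were tested with limma and Benjamini-Hochberg adjustment over the 47885 regions. By rank, 2 of the 60 were higher in MyoD-deleted cells (3.33% against 4.12% of all regions) and 0 were lower (against 4.67%). At an unadjusted p under 0.05, limma gave 7 higher (11.7% against 12.5% of all regions) and 3 lower (5% against 12.7%). A rank of −log10 p in place of fold enrichment called 6 of the 60 higher, where 9.03% of all regions were, and 2 lower, where 10.9% were.

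By centred height, 11 of the 60 regions were higher in MyoD-deleted cells (18.3% against 11.4% of all regions) and 3 were lower (5% against 12.8%). The median change over the 60 was 0.16 on the log2 scale, against 0.04 over all regions, and 45 of the 60 changed upward (75%, against 54.8% of all regions). In 19 regions every MyoD-deleted library was above every vector library (31.7% against 19.8%), and in 4 every one was below (6.67% against 18.1%). Centring took away a difference of 0.19 between the groups, and without it 22 regions were higher (36.7% against 24.7%) and 2 lower (3.33% against 8.03%). The 14 calls by centred height fell at 5 of the 10 genes' windows or at their shared parts: FAS, TNFRSF10A, TNFRSF10B, TNFRSF1A and CFLAR, with 1 of the CFLAR regions also in the window of CASP10. Leaving out each library in turn kept 8 of the 14 calls every time, and 6 lost the call without at least 1 library. Without vector replicate 2, 7 of 62 regions were higher, against 8.06% of all regions in that fit.

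**Figure D2:**
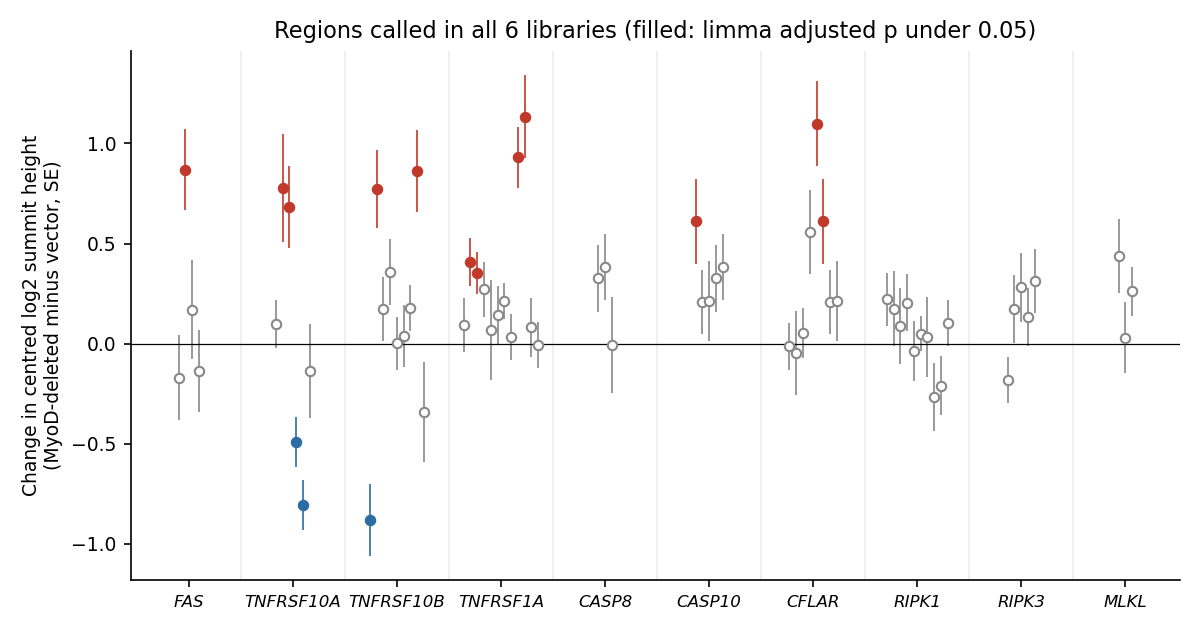
Change in centred log2 summit height (MyoD-deleted minus vector, vertical axis, bars for the limma SE) of each region called in all 6 libraries, by gene and ordered within a gene from 5′ to 3′; regions shared by neighboring genes appear in each column. Filled marks passed the test: 11 distinct regions above 0, at most 1.13, and 3 below, at least -0.88, whereas the columns of CASP8, RIPK1, RIPK3 and MLKL hold open marks only.

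The strongest region at a start did not pass the test at any gene that had one. Taking for each gene the region with the highest mean fold enrichment within 2 kb of a protein-coding start, 7 genes had one in all 6 libraries. A weaker region at another coding start of CFLAR, described with that gene, did pass. RIPK1 had the tallest, with centred heights of 1.61, 1.49 and 2.24 in vector and 1.84, 1.65 and 1.73 in MyoD-deleted libraries. CFLAR followed with 0.75, 0.89 and 1.01 against 1.04, 0.83 and 0.95. TNFRSF10B (0.51, 0.75 and 0.58 against 0.63, 0.53 and 0.68) and TNFRSF1A (0.52, 0.38 and 0.67 against 0.80, 0.79 and 0.40) came next and overlapped each other. CASP8 lay below the median region with -0.51, -0.60 and -0.43 against -0.16, -0.07 and -0.33, MLKL with -0.91, -1.11 and -1.04 against -0.50, -0.52 and -0.73, and FAS was lowest with -1.39, -1.28 and -1.04 against -1.33, -1.46 and -1.33. The groups did not overlap at CASP8 and MLKL, and overlapped at the other 5 genes. The change was 0.33 ± 0.17 (SE, adjusted p = 0.181) at CASP8 and 0.44 ± 0.19 (adjusted p = 0.101) at MLKL, and without centring both passed, with adjusted p = 0.0353 and 0.0192.

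**Figure D3:**
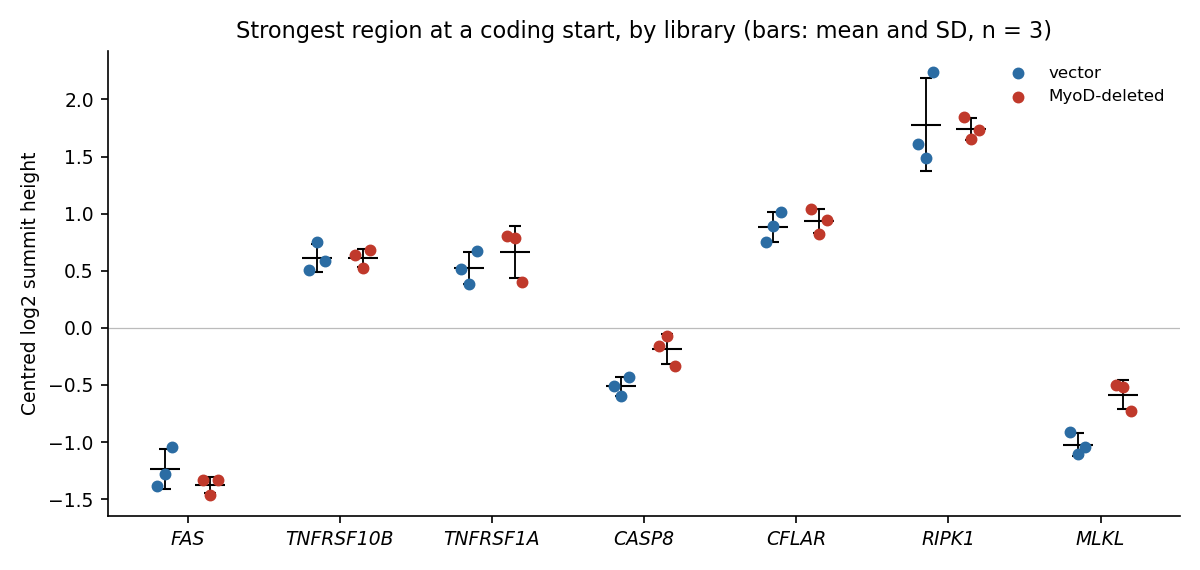
Centred log2 summit height (vertical axis) of the strongest region at a protein-coding start of 7 genes, with 1 point per library (blue, vector; red, MyoD-deleted) and black bars for the mean and SD (n = 3 per group). RIPK1 is highest in both groups, with means of 1.78 and 1.74, and FAS lowest, with -1.24 and -1.38, and red lies wholly above blue at CASP8 and MLKL only.

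CASP10, RIPK3 and TNFRSF10A had no such region in every library. The start of CASP10 was called in 1 MyoD-deleted library only, with a fold enrichment of 4.51. No region was called within 2 kb of a protein-coding start of RIPK3 or TNFRSF10A in any library, and the closest summits lay 3.53 kb and 6.36 kb away. The start regions of these 3 genes could therefore not be compared between the groups, and a start without a called peak may be open below the calling threshold.

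FAS, the receptor for FAS ligand, lies at chr10:88953813-89029605 (GRCh38) and had 9 regions, of which 4 were called in all libraries. The region at chr10:88951259-88952239, which lies 2.02 kb before the annotated 5′ end and 35.0 kb before the nearest protein-coding start, rose in height. Its pileup was 57, 24 and 31 in vector and 50, 67 and 67 in MyoD-deleted libraries. Here and below, pileups are not scaled between libraries, whose smallest backgrounds were 2.22 to 3.41 in vector and 2.27 to 2.35 in MyoD-deleted libraries. The first vector library was above the first MyoD-deleted one in pileup and below it in centred height (-0.51 against -0.21). On the centred log2 scale the means were -0.94 ± 0.38 and -0.07 ± 0.13 (SD, n = 3), the groups did not overlap, and the change was 0.87 ± 0.20 (SE, limma with Benjamini-Hochberg adjustment, adjusted p = 0.00406). The local background of this region also rose, by 0.72 on the log2 scale, and its rank shift of 17.9 percentile points did not pass (adjusted p = 0.252). A gained region lay at chr10:89029769-89030157, just past the 3′ end of the gene, with fold enrichments of 4.59, 4.58 and 4.18 in the MyoD-deleted libraries and no peak in the vector libraries. The start region of FAS, which is also 0.068 kb from the 5′ end of the neighboring ACTA2, was the lowest of the 7 strongest start regions and its change was -0.14 ± 0.21 (adjusted p = 0.689).

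TNFRSF10A and TNFRSF10B encode the TRAIL receptors DR4 and DR5 and lie close together on chromosome 8, with the decoy receptors TNFRSF10C and TNFRSF10D between them. TNFRSF10A (chr8:23190452-23225102) had 8 regions, 6 of them in all libraries, and TNFRSF10B (chr8:23020133-23069031) had 17 with 9. Here regions rose and fell side by side. At TNFRSF10A, a region in intron 1, 6.86 kb from the 5′ end, had fold enrichments of 5.86, 5.27 and 4.18 in vector and 4.97, 9.58 and 9.47 in MyoD-deleted libraries. The groups overlapped, since the first MyoD-deleted library was at the vector level, and the height change was 0.78 ± 0.27 (adjusted p = 0.044). That call was lost without vector replicate 2 (adjusted p = 0.0969), vector replicate 3 (0.159), MyoD-deleted replicate 2 (0.225) or MyoD-deleted replicate 3 (0.131), with changes of 0.55 to 0.78. A second region, 47.8 kb past the 5′ end and nearest to TNFRSF10D, had pileups of 51, 27 and 33 against 41, 74 and 54 and a height change of 0.68 ± 0.20 (adjusted p = 0.0202). It lost the call without vector replicate 2 (adjusted p = 0.0802), vector replicate 3 (0.0647) or MyoD-deleted replicate 2 (0.134).

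A pair of regions in the same window fell. The one at chr8:23160893-23162251, which lies 2.50 kb from the 5′ end of TNFRSF10D, had pileups of 168, 117 and 147 in vector and 71, 76 and 87 in MyoD-deleted libraries. Its centred heights were 1.09 ± 0.06 and 0.28 ± 0.08 (SD, n = 3), with no overlap, and the change was -0.81 ± 0.12 (adjusted p = 0.000143). The one at chr8:23171169-23172223 changed by -0.49 ± 0.13 (adjusted p = 0.00764), which was lost without vector replicate 2 (-0.42, adjusted p = 0.0593) and without centring (-0.30, adjusted p = 0.121). Both hold the E box CAGCTG, the motif that MyoD binds, within 100 bp of the summit, with 2 copies in the first, the nearest 8 bp from the summit, and 1 in the second. The local background fell by 0.57 and 0.44 on the log2 scale.

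At TNFRSF10B the start region did not differ, with a change of 0.00 ± 0.13 (adjusted p = 0.997). The region 23.5 kb upstream, at chr8:23092190-23092936, was the strongest change of rank in the list. It lies nearer to the decoy receptor TNFRSF10C, 10.4 kb upstream of the 5′ end of that gene. Its percentiles were 54.9, 34.0 and 43.9 in vector and 73.6, 76.0 and 65.7 in MyoD-deleted libraries, without overlap, a shift of 27.5 points (adjusted p = 0.0334), and the height rose by 0.77 ± 0.20 (adjusted p = 0.00734). The rank call was lost without vector replicate 2 or 3 or MyoD-deleted replicate 1 or 2, with adjusted p between 0.0896 and 0.114, and the height call held in each of the 6 leave-one-out fits. A region 81.9 kb past the 5′ end and 0.238 kb from the 5′ end of RHOBTB2 rose by 0.86 ± 0.20 (adjusted p = 0.0046). A region 37.0 kb upstream, 3.13 kb from the 5′ end of TNFRSF10C, fell by 0.88 ± 0.18 (adjusted p = 0.00159), with pileups of 88, 52 and 89 against 35, 36 and 45. The lost region lay 13.6 kb upstream, with fold enrichments of 4.66, 3.86 and 4.34 in the vector libraries only.

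TNFRSF1A, which encodes the TNF receptor TNFR1, lies at chr12:6328757-6342114 and had the most regions of the 10 genes, 20 with 12 in all libraries, and the most calls. Its start region did not pass the test (0.14 ± 0.15, adjusted p = 0.539), while 4 distal regions rose in height, 2 more were gained and none fell or was lost. The region at chr12:6294717-6295605, 46.8 kb past the 5′ end and nearest to the 5′ end of a gene outside the list, was called by both measures. Its pileup was 22, 20 and 25 in vector and 43, 42 and 56 in MyoD-deleted libraries, and its percentile was 10.9, 17.1 and 21.2 against 41.7, 31.9 and 42.2. The height rose by 1.13 ± 0.21 (adjusted p = 0.000653), the largest change in the list, and the rank by 22.2 points (adjusted p = 0.0489). The rank call was lost in each of the 6 leave-one-out fits, with adjusted p between 0.0798 and 0.13, whereas the height call held in all 6.

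The region at chr12:6312472-6313695, 29.1 kb past the 5′ end and 2.56 kb from the 5′ end of PLEKHG6, had centred heights of -0.11, -0.08 and -0.07 in vector and 0.55, 0.91 and 1.07 in MyoD-deleted libraries. It rose by 0.93 ± 0.15 (adjusted p = 0.00023), with a local background that rose by 0.82 and a rank shift of 6.20 points that did not pass (adjusted p = 0.432). A pair of regions upstream, near LTBR, the lymphotoxin beta receptor, and SCNN1A, an epithelial sodium channel subunit, rose by 0.35 ± 0.11 (adjusted p = 0.0192) and 0.41 ± 0.12 (adjusted p = 0.0193). The first lost its call without vector replicate 2 (adjusted p = 0.0617), MyoD-deleted replicate 1 (0.0713) or MyoD-deleted replicate 2 (0.0709), and the second without vector replicate 1 (0.0521), MyoD-deleted replicate 2 (0.0616) or MyoD-deleted replicate 3 (0.0769). The gained regions lay 3.42 kb and 19.9 kb upstream. Their fold enrichments in the MyoD-deleted libraries were 3.83, 2.96 and 3.70 for the nearer and 6.65, 7.08 and 5.38 for the farther, and no vector library called either one. A region between the start and the nearer gained one, 1.62 kb upstream, was called in 3 vector and 1 MyoD-deleted library.

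The summits of regions were searched for 5 motifs: the MyoD-type E box CAGCTG, the AP-1 site TGACTCA, the TEAD site GGAATG, the NF-κB motif and the IRF motif GAAANNGAAA. All were searched on both strands except the NF-κB motif, which was searched on a single strand, so its matches on the other strand are not counted. The summits of a gained and a risen TNFRSF1A region are shown because both hold an AP-1 site within 100 bp of the summit, in the risen region 61 bp away and outside the bases printed. Capitals mark an AP-1 site in the nearer gained region (chr12:6345486-6345586) and a TEAD site in the region that rose by both measures (chr12:6295217-6295317), both from GRCh38 on the + strand. The farther gained region also holds an AP-1 site, 4 bp from its summit, and the region 29.1 kb past the 5′ end holds 2 matches to the NF-κB motif, the nearest 4 bp from its summit, and a TEAD site.
TNFRSF1A gained: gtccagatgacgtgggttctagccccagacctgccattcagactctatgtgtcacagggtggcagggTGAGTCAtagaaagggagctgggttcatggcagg
TNFRSF1A distal: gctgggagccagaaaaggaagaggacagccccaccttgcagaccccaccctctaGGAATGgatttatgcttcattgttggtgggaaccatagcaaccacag

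The genes for c-FLIP, caspase-10 and caspase-8 lie side by side on chromosome 2, in that order, CFLAR at chr2:201116154-201176687, CASP10 at chr2:201182872-201229428 and CASP8 at chr2:201233443-201361836. CFLAR had 14 regions with 8 in all libraries, CASP10 had 10 with 5 and CASP8 had 9 with 3. The changes gathered in the body of CFLAR. The region at chr2:201129037-201130023, in intron 1 of the canonical transcript and 0.067 kb from the start of a shorter coding transcript, had pileups of 27, 22 and 17 in vector and 40, 50 and 43 in MyoD-deleted libraries. Centred heights were -1.63 ± 0.31 and -0.53 ± 0.13 (SD, n = 3), with no overlap, and the change was 1.10 ± 0.21 (adjusted p = 0.000988). The local background rose by 1.23 on the log2 scale, the largest such rise in the list, and the rank changed by 1.15 points (adjusted p = 0.838). By height this region was therefore taller in MyoD-deleted cells, and by enrichment over its surroundings the groups overlapped.

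A gained region lay 14.7 kb past the 5′ end of CFLAR in intron 2, with fold enrichments of 3.90, 4.13 and 3.29 in the MyoD-deleted libraries, next to the region that rose. Farther along the gene, in introns 7 and 8, a gained region (3.99, 5.23 and 3.21) stood beside one that rose in height by 0.61 ± 0.21 (adjusted p = 0.0437), whose call was lost without vector replicate 2 (0.161), MyoD-deleted replicate 1 (0.160) or MyoD-deleted replicate 3 (0.148). These 2 regions also lie in the window of CASP10, 33.5 kb and 31.3 kb before its 5′ end. The main start region of CFLAR changed by 0.05 ± 0.12 (adjusted p = 0.814), and a region 8.06 kb into intron 1 changed by 0.56 ± 0.21 without passing (adjusted p = 0.06), although the groups did not overlap.

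The windows of CASP8 and CASP10 held no region that passed by height outside the shared CFLAR intron. The region 1.09 kb before the 5′ end of CASP8 and the one 24.6 kb into the gene, at a second coding start, had higher values in every MyoD-deleted library than in any vector library. Their changes were 0.33 ± 0.17 and 0.38 ± 0.17, with adjusted p = 0.181 and 0.105. A lost region lay 112 kb past the 5′ end of CASP8, within the annotated gene but 79.3 kb from the nearest coding start and nearer to FLACC1, with fold enrichments of 3.85, 3.72 and 5.09 in the vector libraries. A gained region lay 170 kb past the 5′ end and nearest to STRADB, with 4.90, 3.97 and 3.29 in the MyoD-deleted libraries.

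The summits of 3 of these regions on chromosome 2 are shown, the first because it is the lost one and holds an E box, the second because it rose and holds an AP-1 site, and the third because it is gained and holds no motif of the 5 within the bases printed. They cover chr2:201345770-201345870, chr2:201151531-201151631 and chr2:201130801-201130901 (GRCh38, + strand), and capitals mark the motif.
CASP8 lost: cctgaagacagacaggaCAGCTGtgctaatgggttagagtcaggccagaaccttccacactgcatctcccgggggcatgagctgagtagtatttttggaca
CFLAR intron 8: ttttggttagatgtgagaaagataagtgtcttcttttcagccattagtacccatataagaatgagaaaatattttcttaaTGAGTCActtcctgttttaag
CFLAR gained: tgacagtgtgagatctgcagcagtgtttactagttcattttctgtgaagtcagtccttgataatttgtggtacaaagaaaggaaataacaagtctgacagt

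RIPK1, the kinase that links TNFR1 to survival, apoptosis or necroptosis, lies at chr6:3063824-3115187 and had 11 regions, of which 10 were called in all libraries and 1 in 2 vector libraries. None was gained, lost or called by either measure. Height changes of the 10 ranged from -0.27 to 0.22. The region at the first annotated 5′ end had centred heights of 0.20, 0.24 and 0.17 in vector and 0.33, 0.30 and 0.58 in MyoD-deleted libraries, and although these did not overlap the change of 0.20 ± 0.14 did not pass (adjusted p = 0.341). The taller region 4.85 kb into the gene, at a second coding start, changed by -0.04 ± 0.15 (adjusted p = 0.894).

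RIPK3, the kinase that phosphorylates MLKL, is a short gene at chr14:24336025-24340022 and had 10 regions, of which 5 were called in all libraries. No region lay in the gene itself. The nearest, 6.15 kb past the 5′ end and 1.22 kb from the 5′ end of ADCY4, had fold enrichments of 6.84, 10.1 and 8.71 in vector and 10.2, 10.2 and 11.0 in MyoD-deleted libraries, and a height change of 0.17 ± 0.17 (adjusted p = 0.521). A region 11.7 kb upstream, the one with RIPK3 as its nearest 5′ end, was called in 2 MyoD-deleted and no vector library. None of the 10 was gained, lost or called by either measure, and height changes ranged from -0.18 to 0.31.

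MLKL, at chr16:74671855-74700960, had 9 regions with 3 in all libraries. The start region, 0.046 kb from the 5′ end, had pileups of 43, 26 and 32 in vector and 41, 46 and 41 in MyoD-deleted libraries, and its change of 0.44 was the largest among these 7 strongest start regions, with the test given above. Among 13025 protein-coding genes with such a region, PDE10A, SEMA4D and CHAT had the start regions most like it over the 6 centred heights, at Euclidean distances of 0.25, 0.30 and 0.32. A region in intron 1, 4.86 kb past the 5′ end, had percentiles of 67.0, 60.0 and 72.5 in vector and 56.1, 47.4 and 44.1 in MyoD-deleted libraries, a shift of -17.3 points that did not pass (adjusted p = 0.114), while its height changed by 0.03 ± 0.18. The gained region lay 43.0 kb upstream toward FA2H, with fold enrichments of 4.59, 5.50 and 6.87 in the MyoD-deleted libraries. Its summit, chr16:74743880-74743980 (GRCh38, + strand), is shown because it holds 6 CpG dinucleotides in 101 bases and no motif of the 5. The farther gained region of TNFRSF1A also has 6.
MLKL gained: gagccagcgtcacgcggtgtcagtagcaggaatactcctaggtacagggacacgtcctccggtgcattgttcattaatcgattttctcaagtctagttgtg

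As 1 value per gene and library, the median centred height over the regions called in all libraries was higher in every MyoD-deleted than in every vector library at TNFRSF1A, CASP8, CASP10 and CFLAR. The change was 0.26 at TNFRSF1A (0.77 ± 0.15 to 1.03 ± 0.08), 0.35 at CFLAR (-0.61 ± 0.04 to -0.26 ± 0.15) and 0.38 at CASP8 and CASP10 (-0.56 ± 0.05 to -0.19 ± 0.13, SD, n = 3), for which the same shared regions give the median. Each had p = 0.1 in a two-sided exact permutation test with 20 assignments, the smallest p that 3 against 3 allow. By rank the same medians overlapped between the groups at CASP8, CASP10 and CFLAR, with changes of -1.06, -5.22 and -3.32 percentile points, whereas TNFRSF1A changed by 10.4, RIPK1 by -2.16 and MLKL by -17.3 points without overlap (each p = 0.1, exact). By height the other 6 genes changed by -0.13 (FAS) to 0.16 (RIPK3), with p of 0.3 to 1 by the same exact test. These were 10 values for each of the measures, and none can reach a threshold of 0.05 in this design. The share of all protein-coding genes whose medians do not overlap between the groups was not computed. Whether the counts of such genes here are particular to the list was therefore not tested.

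Height and local background moved together in the regions called by height. Both values were recovered from the same peaks, and no control library is named, so the background may include a region's own fragments. How far this ties the measures to each other was not tested. In the 11 regions that rose, the local background was higher in MyoD-deleted libraries in all 11, by 0.36 to 1.23 on the log2 scale, and in the 3 that fell it was lower in all 3, by 0.44 to 0.66. In the 46 regions that were not called, the change of background ranged from -0.17 to 0.72 with a median of 0.11. Over the 60 regions the median change of background was 0.16, against 0.04 over all regions. The fold enrichment divides the summit by this background, so a region whose surroundings rise with it moves in height and less in rank, and only 2 of the 14 regions called by height were also called by rank. Of the 11 regions that rose, 1 lay within 2 kb of a protein-coding start of its gene, and 4 had one of the 10 genes as the nearest 5′ end. Of the 46 regions not called, 11 lay within 2 kb of such a start and 19 had one of the 10 genes as the nearest 5′ end.

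**Figure D4:**
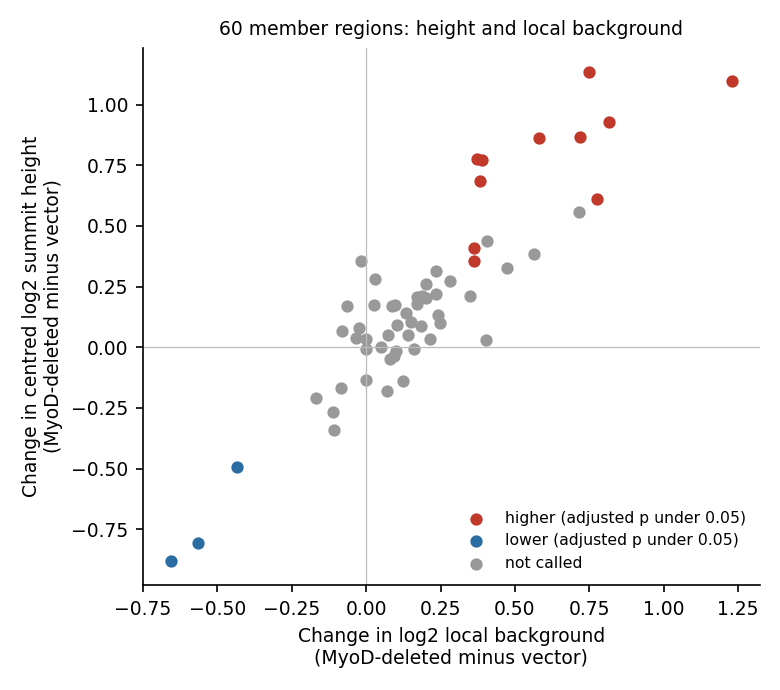
Change in log2 local background (horizontal axis) against change in centred log2 summit height (vertical axis), both MyoD-deleted minus vector, for the 60 regions called in all libraries. The 11 regions that rose (red) have a background change of at least 0.36, the 3 that fell (blue) of at most -0.44, and the 46 others (gray) lie between -0.17 and 0.72.

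The motifs under the summits were counted within 100 bp on each side, the NF-κB motif on a single strand. AP-1 sites were present in 23 of the 105 regions (21.9%, against 17.9% of all regions) and the E box in 19 (18.1% against 25.1%). Among the 11 regions that rose, 6 held an AP-1 site (54.5%, against 17.6% of the 47885 regions called throughout), 3 a TEAD site (27.3% against 16.1%), 2 the NF-κB motif (18.2% against 5.11%) and 0 the E box (against 27.8%). Among the 3 that fell, 2 held the E box and none an AP-1 site. Of the 7 gained regions, 2 held an AP-1 site and 1 a TEAD site, and of the 2 lost, 1 held the E box and the other AP-1 and TEAD sites. These counts are descriptions of few regions, and a match is not a bound site. Motif shares were not computed for all regions of the genome that rose, fell, were gained or were lost. Whether the counts are particular to these genes was therefore not tested.

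RefSeq promoters of 300 bases (250 before and 50 after the start, GRCh38.p14) were matched for 6 of the 10 genes, with no entry for TNFRSF10A, TNFRSF10B, CASP10 and RIPK3. RIPK1 had 36 CpG dinucleotides, CFLAR 21, FAS 18, MLKL 9, CASP8 6 and TNFRSF1A 4, where the median of 27305 promoters was 14. All but that of CASP8 overlapped a region called in all 6 libraries, so the start was open both in the CpG-rich promoter of RIPK1 and in the CpG-poor one of TNFRSF1A. CASP8's nearest region lay just upstream of the promoter window. Among the motifs, the promoter of CFLAR held the NF-κB motif (8.04% of all promoters), that of CASP8 the IRF motif (3.65%) and that of MLKL the E box (17.7%). Here too the NF-κB motif was searched on a single strand.

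The other genes of the pathway, 34 ligands, decoy receptors, adaptors, caspases and regulators, had 289 regions in their windows beyond those above, with 163 in all libraries. Of these, 4 were gained and 4 lost (1.38% each), 5 were ranked higher and 6 lower (3.07% and 3.68%), and by centred height 14 were higher and 18 lower (8.59% and 11.0%), against the shares over all regions given above. A region within 2 kb of a coding start was called for 26 of the 34 genes. Among ligands, TNFSF10, which encodes TRAIL, had a gained region 18.0 kb upstream with fold enrichments of 7.34, 9.47 and 11.7, and 27.3 kb upstream a region that rose in mean percentile from 69.7 to 98.6 (adjusted p = 0.0127). For FASLG, the ligand of FAS, a region 15.0 kb upstream fell in mean percentile from 18.4 to 1.81 (adjusted p = 0.0279), with a height change of -0.59 that did not pass (adjusted p = 0.121). Another region farther upstream of FASLG rose in height by 1.24 ± 0.29 (adjusted p = 0.00429) and did not pass by rank (adjusted p = 0.133).

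TNFRSF1B, the second TNF receptor, had 2 regions ranked higher, 33.8 kb and 13.4 kb upstream, where the height rose by 1.06 ± 0.20 and 1.70 ± 0.23. BID, the protein that caspase-8 cuts to engage mitochondria, had a region 7.08 kb upstream whose percentile rose from 8.77 ± 0.36 to 38.7 ± 2.2 (SD, n = 3, adjusted p = 0.00769), another 49.8 kb past the 5′ end that fell from 56.6 to 22.3 (adjusted p = 0.0412), and a lost region 10.7 kb upstream. Regions near CASP9, the caspase of the mitochondrial route, and RNF31, a subunit of the linear ubiquitin ligase that acts on RIPK1, were ranked lower, at RNF31 also at the start (78.3 to 58.1, adjusted p = 0.0392). BIRC2 and BIRC3 are neighbors that encode the ubiquitin ligases cIAP1 and cIAP2. A region 0.014 kb from the 5′ end of BIRC3 fell in mean percentile from 92.7 to 81.9 (adjusted p = 0.0376). Its height change of -0.21 did not pass (adjusted p = 0.215). Past BIRC2, 1 region was ranked higher (18.0 to 47.4, adjusted p = 0.0246) and 1 was lost. TNFRSF10C and TNFRSF10D came under the same rule through regions shared with TNFRSF10B that are described above.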

How the data were processed

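ATAC-seq was measured in 6 RH30 libraries, grouped as 3 vector and 3 MyoD-deleted from the sample labels. According to the methods, the authors used Rsubread to map paired-end reads to hg38, retained proper pairs, and ran MACS2 on each library; the submitters' processing notes also name bcl2fastq 2.20 and FastQC. The methods name the DAC exclusion list without saying whether it was applied before the peak lists were written. The deposited fold enrichment is the ratio of summit pileup to local background within a library. The deposited −log10 p and −log10 q belong to the same summit, and the deposited score is a whole-number form of −log10 q. None of these values is normalized between libraries, and read counts were not used here. The authors' own test used read counts and DESeq2.

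Peaks on chromosomes 1 to 22, X and Y were merged. Pileup and local background were recovered from the fold enrichment and −log10 p under the Poisson model of MACS2, and for 100% of peaks a whole-number pileup gave the deposited −log10 p to within 0.002 or 0.02%, whichever is larger. Depth is unknown, and the smallest background of a library scaled its heights. limma 3.58.1 (lmFit, eBayes with a trend, R 4.3.3) was fitted on inverse-normal ranks of fold enrichment and on centred log2 heights over 47885 regions, with Benjamini-Hochberg adjustment and a threshold of 0.05. P-values measure the spread between these libraries. The steps were tested on simulated data. Genes came from GENCODE version 44, whose build matches that of the files, and sequences from GRCh38. Other steps ran in Python 3.11.15 (pandas 2.3.3, scipy 1.17.1, numpy 2.4.6, matplotlib 3.10.9, pysam 0.24.0).

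Some items are not reported here. The 10 genes, the pathway list and the tests were chosen with earlier results of these data known. The regions named are the strongest one at a coding start of each gene, all that were gained or lost, those called by either measure (at most 5 per gene), and, from the pathway list, the 10 genes with the most gained, lost or rank-called regions. Regions named without a call, and the FASLG region named by height, were chosen after their values were seen. Alternatives were a window of 5 kb, the nearest protein-coding 5′ end, only peaks with −log10 q of 5 or more, the top 63140 peaks of each library, only regions where peaks cover 50% or more, ranks of −log10 p, no centring, the replicate number as a block, and each library left out.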

Additional observations from a re-analysis of the deposited data

How the results depend on the processing

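Counts of regions at the 10 genes depended on how regions were assigned and called. With a window of 5 kb, 43 regions remained in the count, with 4 gained, 1 lost, 0 ranked higher, 4 higher and 0 lower by height. With the nearest protein-coding 5′ end, 39 were counted, with 3 gained, 0 lost, 0 ranked higher, 4 higher and 0 lower by height. Both assignments used the main fits, so the shares over all regions are those given above. A −log10 q of at least 5 gave 4 gained and 1 lost of 96 (4.92% and 2.08% of all regions). Equal numbers of peaks gave 2 gained of 90 and 1 ranked higher of 55 (3.26% and 3.82% of all regions), and peaks covering at least 50% of a region gave 0 lost and 7 higher by height of 50 (2.65% and 11.5% of all regions). Ranks of −log10 p gave 6 higher and 2 lower, and without centring 22 were higher by height. Leaving out each library in turn gave 7 to 9 gained, 2 to 5 lost, 0 to 2 ranked higher, 7 to 12 higher and 2 to 3 lower by height. Over all regions, these fits ranked 1.3% to 5.1% higher, and by height 7.3% to 13.4% were higher and 9.0% to 14.1% lower. The shares of all regions gained or lost were not computed for these fits. The causes were not tested.

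The labels do not say whether same-numbered libraries were prepared together. Deviations of same-numbered libraries from their group means correlated at -0.04, -0.10 and 0.04 by rank and at -0.04, -0.20 and 0.09 by height. Only vector replicate 3, by height, correlated best with its own number. With 3 libraries per group, these values cannot settle whether a pairing exists. With the replicate block, 0 regions were ranked higher, where 2.84% of all regions were. By height 10 were higher and 3 lower, where 10.4% and 12.1% of all regions were. The TNFRSF10A intron 1 region was no longer called (limma, adjusted p = 0.0546).

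Among 21 named regions, changes that turned sign were all of regions not called in that measure. By height without centring they were 0.054 at the FAS start and 0.15 at the RIPK1 start. By rank of −log10 p they were 0.949 points at the TNFRSF10B start and 5.53 at the CASP8 start. Other sign changes came from leaving out 1 library, with ranges over the 6 such fits of -0.052 to 0.066 in height and -3.76 to 0.873 points in rank at the TNFRSF10B start, -0.276 to 4.83 points at the TNFRSF1A start, -5.13 to 6.98 points in CFLAR intron 8, -0.015 to 0.12 in height and -5.96 to 6.07 points at the CFLAR start, -3.12 to 5.29 points in CFLAR intron 1, and -0.18 to 0.20 in height and -10.2 to 3.96 points at the RIPK1 start. Depth is unknown, so a region without a call may be open below the calling threshold.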
